A study of Mus musculus with 4 samples.

Results

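Macrophages lacking the long non-coding RNA lncLy6c (LNCKO) and exposed to butyrate were compared with LNCKO control macrophages across the transcriptome. All genes whose FPKM averaged 1 or more across the 4 libraries were taken, which were 6809 of the 16375 genes listed. FPKM is the number of fragments per kilobase of gene and per 1000000 fragments of the library. The genes closest to this limit were Nipsnap2, with a mean of 1.00, which was taken, and Nfat5, with a mean of 0.9995, which was not. The series holds bone marrow-derived macrophages (BMDMs) of 2 genotypes, WT and LNCKO, each with a control library and a library of cells given 500 µM butyrate for 24 h. The cells were grown from mouse bone marrow with macrophage colony-stimulating factor, and the WT macrophages carry no deletion of lncLy6c. There was 1 library per group, so no difference has a replicate check, no test was made, and every value describes a pair of libraries. The study's methods place the lncLy6c-deficient mice, made with CRISPR-Cas9, on a C57BL/6J background and describe its mice as young animals of either sex, but do not say which age or sex, or how many mice, each library holds.

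Butyrate is a short-chain fatty acid that gut bacteria make from dietary fibre. It inhibits class I histone deacetylases, enters cells through monocarboxylate transporters and binds G protein-coupled receptors, of which Ffar2 and Hcar2 are found on myeloid cells. LncLy6c is a transcript that the study examines in the differentiation of inflammatory monocytes, and the comparison asks how macrophages without it differ when butyrate is present. The name lncLy6c was not among the gene symbols, and its loss was not analysed here.

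The libraries held 53363944 to 65521713 fragments, and that of LNCKO butyrate was the largest. The genes taken had a median of 3395 fragments in LNCKO control, and 99.63% of them had at least 100 in both LNCKO libraries. Of 15 macrophage identity genes, 15 passed the limit, among them Cd68 with 307 FPKM in LNCKO control and 329.96 with butyrate. The cultures also held transcripts listed as markers of other cells, such as S100a8 for neutrophils with 984 and 957 FPKM and Cd79a for B cells with 69.3 and 69.2 FPKM. Bulk RNA does not show which cells made them. In the WT libraries Ddx3y, a Y-linked gene, had 0.0446 and 0.0320 FPKM, against 4.44 in LNCKO control and 4.58 in LNCKO butyrate, so the WT values set beside those of LNCKO come from cells that also differ in Y-linked expression, and the genotypes cannot be told apart from that difference. Both LNCKO libraries carry names that do not spell their condition, and the titles were followed.

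The promoters of globin genes, which were among those with the highest changes, and of 3 interferon-induced genes are shown first. Each is the 250 bases before the start given by RefSeq on GRCm38.p6, written 5′ to 3′ on the strand of the gene. For the globin genes, capitals mark CACCC, the letters that Klf1 and related factors read, AGATAA, which Gata1 and its relatives read, and the promoter element CCAAT, each searched on both strands. Of 32536 promoter windows of this length, 52.1% hold CACCC, 9.97% hold AGATAA and 33.8% hold CCAAT. The Hba-a1 window held CACCC 2 times and CCAAT once, and the Hba-a2 window, which is 97.6% identical to it, held the same. The Hbb-bt window held CACCC 3 times and CCAAT 3 times, where 2 of the CCAAT matches adjoin on opposite strands. The Hbb-bs window held each of the 3 motifs once. Hbb-bs is the RefSeq name of the gene that the file lists as Hbb-b1.
Hba-a1 (chr11:32283422-32283671, + strand): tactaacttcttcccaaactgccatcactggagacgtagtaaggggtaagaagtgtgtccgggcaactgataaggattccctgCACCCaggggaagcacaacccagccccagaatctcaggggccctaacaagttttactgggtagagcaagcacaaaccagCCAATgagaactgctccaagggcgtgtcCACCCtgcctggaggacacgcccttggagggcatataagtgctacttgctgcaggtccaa
Hbb-bt (chr7:103813924-103814173, - strand): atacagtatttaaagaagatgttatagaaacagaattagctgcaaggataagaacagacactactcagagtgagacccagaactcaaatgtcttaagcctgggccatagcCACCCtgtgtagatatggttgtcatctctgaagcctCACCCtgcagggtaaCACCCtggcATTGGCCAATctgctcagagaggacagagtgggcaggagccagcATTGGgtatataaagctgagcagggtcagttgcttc
Hbb-bs (chr7:103827929-103828178, - strand): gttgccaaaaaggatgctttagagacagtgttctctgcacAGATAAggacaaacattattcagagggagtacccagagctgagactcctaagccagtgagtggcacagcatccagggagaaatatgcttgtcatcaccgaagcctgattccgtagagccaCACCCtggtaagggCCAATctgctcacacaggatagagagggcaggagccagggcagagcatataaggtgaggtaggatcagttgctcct

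For 3 genes induced by interferon, capitals mark the core of the interferon-stimulated response element, which is GAAA, any 2 bases and GAAA again, and which 2.98% of the promoter windows hold on either strand. The Cxcl10 window held it once, and the windows of Ifit1 and Ifit3b held it 2 times each. Of windows that were also searched but are not shown, that of Ifit3 held it 2 times and that of Ccl8 held it 0 times. The letters describe these windows and were not tested for binding.
Cxcl10 (chr5:92348890-92349139, - strand): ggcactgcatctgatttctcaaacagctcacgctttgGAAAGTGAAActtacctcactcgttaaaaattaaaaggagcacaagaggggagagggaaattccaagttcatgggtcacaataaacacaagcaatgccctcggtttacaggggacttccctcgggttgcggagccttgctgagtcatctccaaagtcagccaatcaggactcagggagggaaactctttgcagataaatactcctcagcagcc
Ifit1 (chr19:34640639-34640888, + strand): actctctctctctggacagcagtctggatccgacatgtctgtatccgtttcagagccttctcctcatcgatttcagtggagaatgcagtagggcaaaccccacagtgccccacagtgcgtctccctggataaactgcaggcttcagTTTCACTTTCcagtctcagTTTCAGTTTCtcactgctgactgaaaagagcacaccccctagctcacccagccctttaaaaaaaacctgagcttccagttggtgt
Ifit3b (chr19:34607707-34607956, + strand): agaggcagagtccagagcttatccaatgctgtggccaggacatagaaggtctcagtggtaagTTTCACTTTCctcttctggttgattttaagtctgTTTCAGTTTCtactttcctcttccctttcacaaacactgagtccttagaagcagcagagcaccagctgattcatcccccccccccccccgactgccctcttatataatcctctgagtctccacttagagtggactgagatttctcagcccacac

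With butyrate, 7 of the 6809 genes (0.103%) were at least 2-fold higher in LNCKO macrophages and 5 (0.0734%) were at least 2-fold lower. These changes, like all log2 changes below, are log2 ratios of FPKM + 1, which understate the change of genes with a low FPKM. The 7 were the alpha globin genes Hba-a2 and Hba-a1, the beta globin genes Hbb-bt and Hbb-b1, the monocyte-attracting chemokine Ccl8, the histone gene H3c14 and ENSMUSG00000111497. The 5 were Raver1, Ptprcap, ENSMUSG00000030680, H2ac18 and Snx22, and each of these overlaps another gene on the same or the opposite strand. The share of all genes that do so was not counted. Raver1, ENSMUSG00000030680 and H2ac18 were covered to at least 50% on the same strand, which held for 4.6% of all genes. At a smaller limit of 0.32 on the log2 scale, which is a ratio of about 5 to 4, 69 genes (1.01%) were higher and 31 (0.455%) were lower. With a pseudocount of 0.1 on the same genes, 127 were higher and 84 lower by this limit. With FPKM rescaled to a sum of 1000000 per library, 376 genes were higher and 357 lower, but there the pseudocount of 1 weighs less and 11021 genes, with a median change of -0.04, passed the filter. With recovered fragments per 1000000, 12 genes were higher and 5 lower at 2-fold.

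The whole distribution was narrow. The median change was -0.01 with an SD of 0.118 across genes, and 42.2% of genes lay above 0. Counts of list members above 0 in LNCKO, given below, are to be read beside this share. Those in WT are to be read beside the 2512 of 6809 genes that lay above 0 in WT. In WT, the SD was 0.186. Most genes past 0.32 were short. Among the 2267 shortest genes by genomic span, up to 9581 bases, 56 were higher and 20 lower (3.35% in all), whereas among the 2267 longest, from 24332 bases, 3 were higher and 2 lower (0.221%). The FPKM were computed over the whole span of a gene with its introns, so a level is compared here between libraries only.

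**Figure D1:**
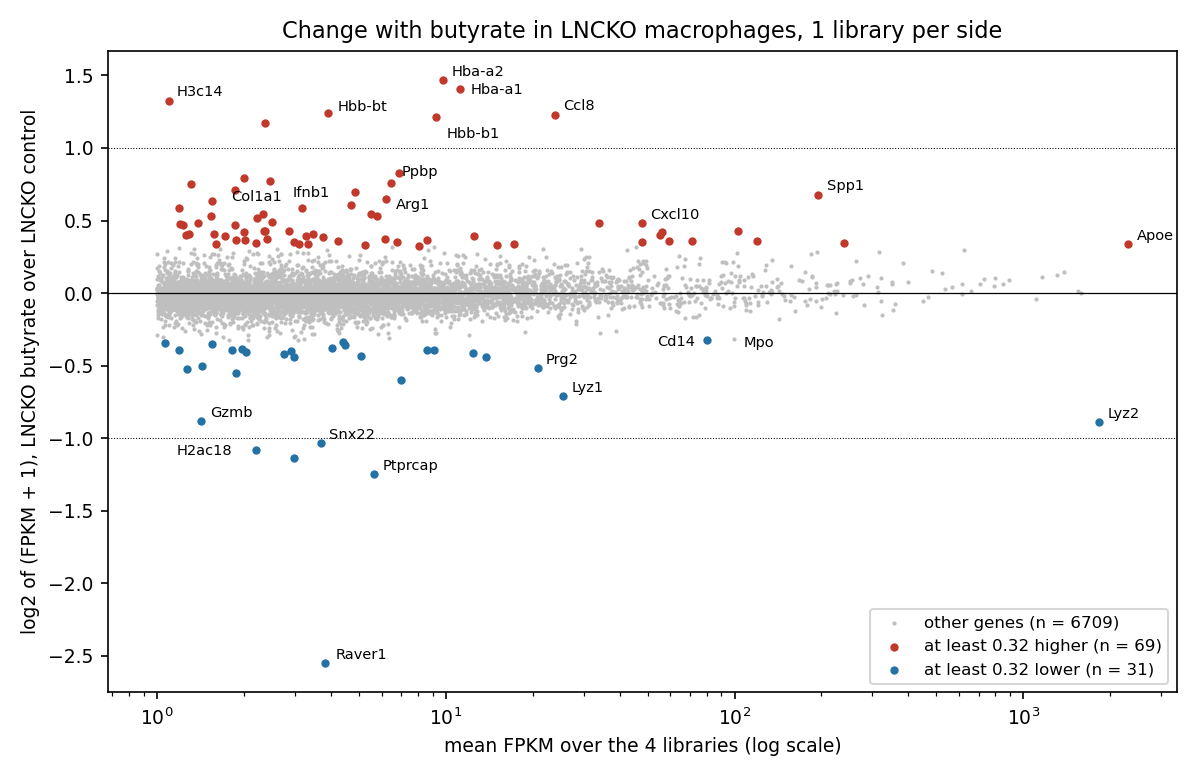
Log2 change with butyrate in LNCKO macrophages (vertical axis) against the mean FPKM over the 4 libraries (horizontal axis, log scale), with 1 point per gene for 6809 genes. Red points are the 69 genes at least 0.32 higher and blue points the 31 at least 0.32 lower, and dotted lines mark 2-fold. The globin genes and Ccl8 lie above the upper line, and Lyz2 stands apart among the most abundant genes.

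Globin genes were among those with the highest values. Hba-a1 and Hba-a2, which encode the alpha chain of hemoglobin, lie on chromosome 11 of GRCm38 at 32283511 to 32284465 and 32296489 to 32297298. Hbb-b1 and Hbb-bt, which encode the beta chain, lie on chromosome 7 at 103826534 to 103828096 and 103812524 to 103813996. Hba-a2 had 2.25 and 2.48 FPKM in WT without and with butyrate, and 8.68 and 25.8 in LNCKO, and its change in LNCKO was 1.47. Hbb-b1 had 2.00, 2.63, 9.36 and 23.1 FPKM in the same order, with a change of 1.21. Both LNCKO libraries stood above both WT libraries, and the LNCKO butyrate library was the highest for each of the 4 genes. As plain FPKM ratios, the 4 genes were 2.46-fold to 2.97-fold higher with butyrate in LNCKO. For Hba-a1, 519 fragments in control and 1788 with butyrate gave a ratio of 2.81 with a 95% Clopper-Pearson interval from 2.54 to 3.10. Intervals of this kind cover counting error only and not the spread between cultures. Fragments without molecular identifiers are not independent molecules, so the intervals may be too narrow even for that error.

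The alpha and beta genes moved by similar amounts. Near-identical copies can share reads, so the pairs were also summed. The sum of Hba-a1 and Hba-a2 went from 16.8 to 48.2 fragments per 1000000, a ratio of 2.88, and the sum of Hbb-b1 and Hbb-bt from 20.1 to 51.0, a ratio of 2.54. All 4 together made up 36.9 fragments per 1000000 in LNCKO control and 99.2 in LNCKO butyrate, against 8.80 and 10.6 in WT. In bulk RNA, a larger number of cells of a type and more RNA per cell cannot be told apart.

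The other genes of red cell precursors were near 0. Of the 17 genes listed for this lineage, 5 passed the limit, and the fifth was Tfrc, the transferrin receptor that dividing cells of many types carry, with a change of -0.07. Alas2, which starts heme synthesis in red cells, had 0.0354 FPKM in LNCKO control and 0.0374 with butyrate, and Slc4a1 and Epb42, which build the red cell membrane, were listed at 0 in both. Klf1, the lineage's master regulator, had 0.0167 FPKM in control and was listed at 0 with butyrate. The summed FPKM of the 17 genes was 41.9 in LNCKO control and 97.0 with butyrate, and in WT it was 17.3 and 17.96.

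**Figure D2:**
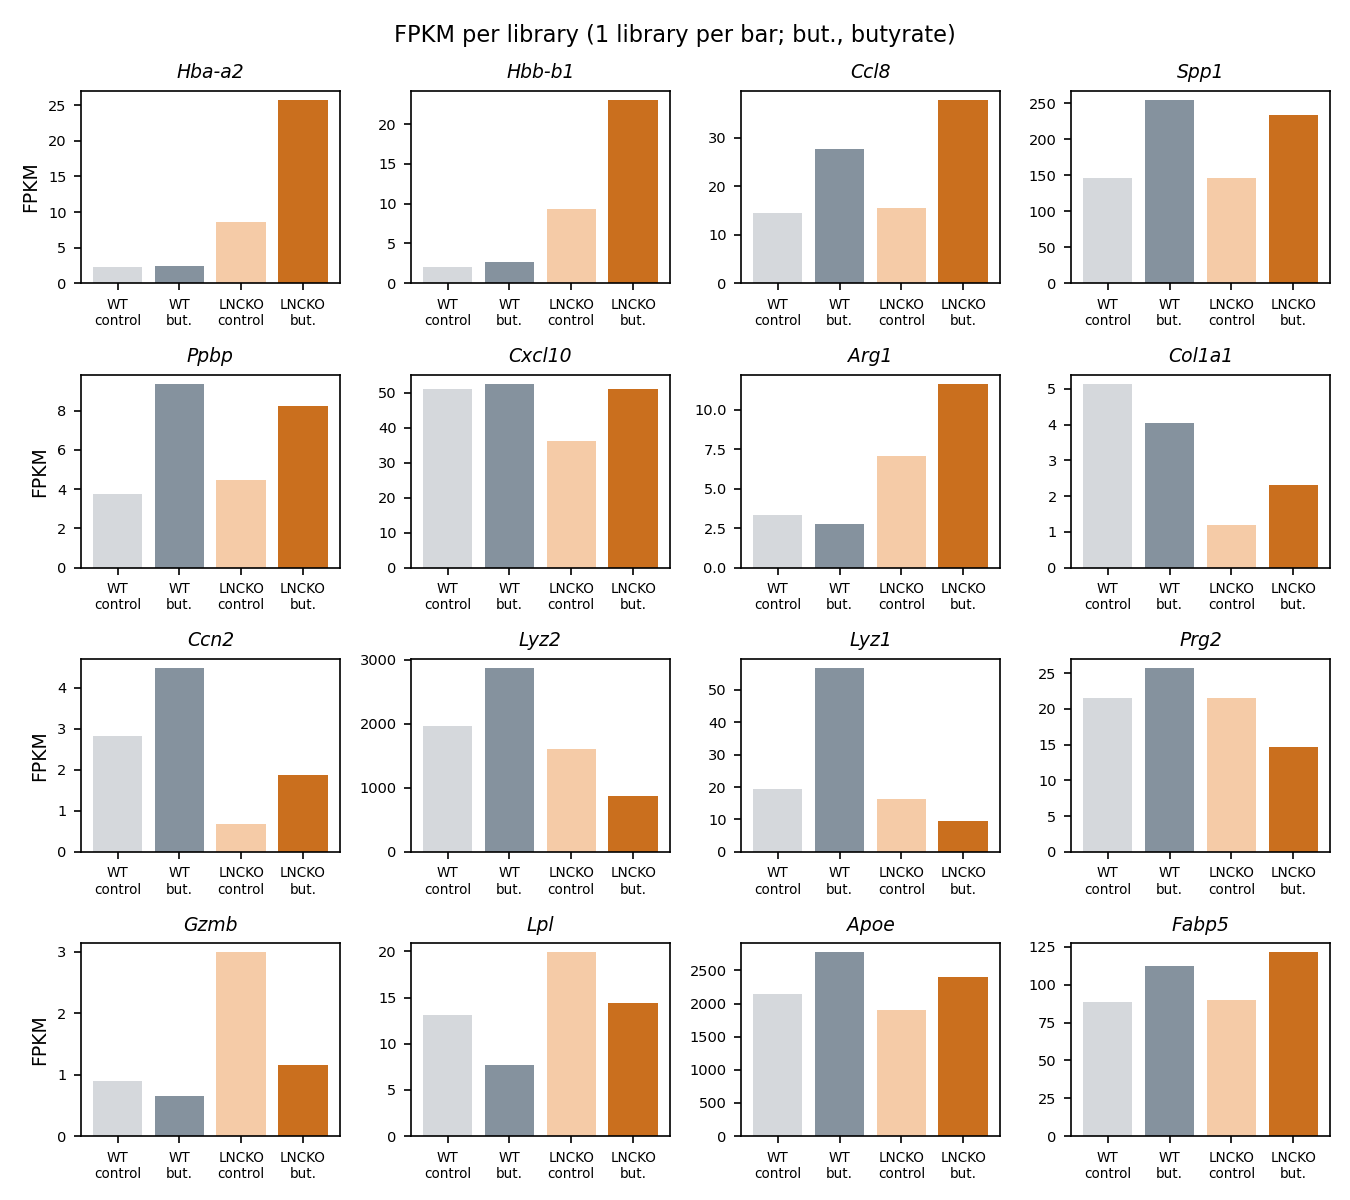
FPKM (vertical axes, each from 0) of 16 genes in the 4 libraries, with 1 library per bar and control before butyrate in WT and then in LNCKO. Hba-a2 and Hbb-b1 are highest in LNCKO butyrate, Lyz2 and Lyz1 are higher with butyrate in WT and lower in LNCKO, and Ccl8, Spp1 and Ppbp are higher with butyrate in both genotypes.

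Lysozyme was lower. Lyz2, the lysozyme of macrophages and neutrophils at chromosome 10, 117277331 to 117282321, was among the most abundant transcripts, with 1972 and 2871 FPKM in WT without and with butyrate, and 1609 and 869.9 in LNCKO. Its change with butyrate was -0.89 in LNCKO and 0.54 in WT. The LNCKO butyrate library was the lowest of the 4 and the WT butyrate library the highest. Its neighbour Lyz1, the lysozyme of Paneth cells with a nearly identical sequence, had 19.4, 56.7, 16.2 and 9.51 FPKM in the same order, a change of -0.71. Summed, both genes went from 8115 fragments per 1000000 in LNCKO control to 4389.7 with butyrate, so the difference does not depend on how reads were split between them. The other 14 macrophage identity genes moved less. Their list had a median of 0.01 in LNCKO and 0.17 in WT, with 2 genes past 0.32 in LNCKO, Lyz2 and Cd14. Cd14, the co-receptor of bacterial lipopolysaccharide, had 95.6 FPKM in LNCKO control and 76.3 with butyrate, a change of -0.32, and was also lower with butyrate in WT at -0.56. Csf1r, the receptor of macrophage colony-stimulating factor, had -0.09.

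Genes of granulocytes were mostly lower in LNCKO. Of 15 genes of neutrophils and their precursors, all of which passed the limit, 3 lay above 0 and the median was -0.07, whereas it was 0.17 in WT with 11 above 0. With the libraries scaled by their median ratio, 5 of the 15 lay above 0 in LNCKO. Cebpe, a transcription factor of granulocyte maturation, had 13.5 FPKM in LNCKO control and 9.93 with butyrate, a change of -0.41, and was the only one past 0.32. Mpo, the myeloperoxidase of primary granules, had 105.5 and 84.6 FPKM, a change of -0.316, and Ltf, lactoferrin of secondary granules, had 18.4 and 15.1, a change of -0.27. The abundant S100a8 and S100a9 had -0.04 and -0.01. Ly6g, a surface marker of mature neutrophils, lay on the other side, with 2.99 and 3.79 FPKM and a change of 0.26. The summed FPKM of the 15 genes was 2617 in LNCKO control and 2515 with butyrate.

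Several genes of eosinophils were lower. Their list was written after these values had been seen, so its counts and median describe the chosen genes and are no support for a change of the group. At any level 1 of the 12 was higher in LNCKO butyrate, and with a limit of 5 FPKM 3 were left. Prg2, the major basic protein of eosinophil granules, had 21.5 and 25.7 FPKM in WT without and with butyrate, and 21.5 and 14.7 in LNCKO, a change of -0.52. Of the 12 genes listed, 8 passed the limit, 0 of these lay above 0, and 5 were past 0.32, namely Prg2, Prg3, the eosinophil ribonuclease Ear6, the eotaxin receptor Ccr3 and Cebpe, which is also on the neutrophil list. Their median was -0.37 in LNCKO and 0.02 in WT. Ear6 and Ccr3 were lower in WT as well, at -0.47 and -0.52. The eosinophil peroxidase Epx, under the limit, had 0.668 FPKM in LNCKO control and 0.295 with butyrate. The summed FPKM of the 12 genes was 52.1 in LNCKO control and 37.7 with butyrate, against 50.4 and 55.4 in WT.

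Among lymphoid genes, Gzmb, the granzyme of cytotoxic cells, had 0.901 and 0.647 FPKM in WT without and with butyrate, and 2.99 and 1.16 in LNCKO, a change of -0.88. The LNCKO control library was the high one. The other T and NK cell genes past the limit, Nkg7, Cd4 and Cd8a, had -0.15, 0.11 and 0.14. The 8 B cell genes had a median of 0.00 and ranged from -0.13 to 0.09, whereas in WT their median was -0.32. The 4 dendritic cell genes had a median of -0.04 and the 5 mast cell and basophil genes -0.03. In the last of these lists Ms4a2, the beta chain of the IgE receptor, stood apart with 1.03 FPKM in LNCKO control and 2.41 with butyrate, a change of 0.75, while Mcpt8, a basophil protease, had -0.12 and Fcer1a, the alpha chain of the same receptor, was near 0 with 0.104 and 0.0978 FPKM.

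Platelet genes were higher in LNCKO butyrate. Of 10 megakaryocyte and platelet genes, 3 passed the limit and all 3 lay above 0. Of the 10 at any level, 10 were higher with butyrate in LNCKO, and 5 in WT. Among all genes at any level, 42.44% were higher with butyrate in LNCKO. Ppbp, the precursor of the chemokine Cxcl7, had 3.73 and 9.36 FPKM in WT without and with butyrate, and 4.46 and 8.25 in LNCKO, a change of 0.76 in LNCKO and 1.132 in WT. Pf4, platelet factor 4, had 117 FPKM in LNCKO control and 150.4 with butyrate, a change of 0.36. Both butyrate libraries were above both control libraries for these 2 genes. Macrophages express Pf4 as well, and defining platelet genes were low, with 0.309 and 0.585 FPKM of Gp9 and 0.882 and 1.02 of Itga2b in LNCKO.

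Stromal genes were higher in LNCKO butyrate, from a low level. Col1a1 and Col1a2, the chains of type I collagen, had 1.20 and 0.548 FPKM in LNCKO control and 2.31 and 1.23 with butyrate, with changes of 0.59 and 0.53. Bgn, the matrix proteoglycan biglycan, had 2.10 FPKM with butyrate and a change of 0.54, and Serpinh1, the collagen chaperone, had 0.855 and 1.48, a change of 0.42. Of 22 stromal genes, 6 passed the limit, 4 of these were past 0.32 and all 4 were higher, and the median was 0.47. Among all 22 at any level, 21 were higher with butyrate in LNCKO, and 12 in WT. The exception was Vim, which macrophages express strongly, with 120.6 and 111.1 FPKM. With a limit of 5 FPKM, Vim alone was left and the median was -0.12. The LNCKO libraries were both below the WT libraries for Col1a1, which had 5.14 FPKM in WT control and 4.04 in WT butyrate.

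Other genes of fibroblasts and of matrix growth control were among those highest. Ccn2, the connective tissue growth factor, had 2.83 and 4.48 FPKM in WT without and with butyrate, and 0.676 and 1.86 in LNCKO, a change of 0.77, and it overlaps an antisense transcript, Gm15270. Cyp1b1, a cytochrome P450 of stromal cells, had 2.27, 2.71, 0.690 and 1.76 FPKM in the same order, a change of 0.71. For both genes LNCKO control was the lowest library. Timp1, an inhibitor of matrix metalloproteinases, had 1.90 FPKM in LNCKO control and 2.90 with butyrate, a change of 0.43, and was the only one past 0.32 of 11 metalloproteinase and TIMP genes, whose median was 0.07. The part of stromal cells in the values of Ccn2, Cyp1b1 and Timp1 was not tested.

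The listed CC chemokine genes were higher with butyrate, most of them by little. Ccl8, which attracts monocytes and lies at 82115185 to 82116799 on chromosome 11, had 14.6 and 27.7 FPKM in WT without and with butyrate, and 15.6 and 37.9 in LNCKO. Its change was 1.23 in LNCKO and 0.88 in WT, and as a plain ratio in LNCKO it was 2.43-fold, with a counting interval from 2.28 to 2.59. Both butyrate libraries were above both controls. Of the 14 genes on the list of CC chemokines and their receptors that passed the limit, 14 lay above 0, beside 42.2% of all genes, although 13 were within 0.32 and the median was 0.08. Ccl12, a neighbour of Ccl8, followed with 36.0 and 44.6 FPKM and a change of 0.30 in LNCKO, where WT had 1.246. Ccl5, a chemokine for T cells and monocytes, had 81.2 and 203 FPKM in WT without and with butyrate, and 85.4 and 92.9 in LNCKO, with a change of 1.31 in WT and 0.12 in LNCKO. Ccl7 had 0.10 in LNCKO and 0.96 in WT. The inflammatory monocyte receptor Ccr2 was level in LNCKO, with 131 and 132 FPKM. Ccr3, a CC receptor that stands on the eosinophil list and not on this one, was lower with -0.35.

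CXC chemokines had the larger differences. Of 8 genes past the limit, 7 lay above 0, 4 were past 0.32 and the median was 0.32, against 0.48 in WT. Besides Ppbp and Pf4, which are also on the platelet list, these were Cxcl10 and Cxcl2. Cxcl10, an interferon-induced attractant of T cells, had 50.9 and 52.5 FPKM in WT without and with butyrate, and 36.2 and 51.0 in LNCKO, a change of 0.48. LNCKO control was the low library, and LNCKO butyrate was at the level of both WT libraries. Cxcl2, a neutrophil attractant, had 24.0, 37.3, 30.8 and 43.5 FPKM in the same order, a change of 0.48, with both butyrate libraries above both controls.

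Cytokines showed no common direction. Spp1, the secreted matrix protein osteopontin, had 145.8 and 254.6 FPKM in WT without and with butyrate, and 145.6 and 233.6 in LNCKO, a change of 0.68, and was alone past 0.32 among 12 cytokines and antagonists, of which 7 lay above 0. Both controls were nearly equal and both butyrate libraries were higher. Il1rn, the interleukin 1 receptor antagonist, had 3.36 and 4.35 FPKM in LNCKO, a change of 0.30. Tnf had 5.07 and 4.42, a change of -0.16, and Osm, oncostatin M, had 12.97 and 10.5, a change of -0.28. Ifnb1, the type I interferon beta, and Ptgs2, the inducible cyclooxygenase, are on no list and were named after their values were seen. Ifnb1 had 4.00 and 6.61 FPKM in LNCKO, a change of 0.61 that rests on 160 and 325 fragments, and Ptgs2 had 3.11 and 4.52, a change of 0.42.

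Interferon-stimulated genes were slightly higher together. Of 26, all of which passed the limit, 25 lay above 0, 0 were past 0.32 and the median was 0.12, beside -0.01 for all genes, and in WT it was 0.15 with 22 above 0. Ifit1, which binds foreign RNA caps, had 45.6 and 52.4 FPKM in WT without and with butyrate, and 37.6 and 47.1 in LNCKO, a change of 0.3201 that lies just under the unrounded limit. Ifit3 had 189, 209, 169 and 206 FPKM, a change of 0.29. For both, LNCKO control was the lowest library. Rsad2, the antiviral enzyme viperin, had 0.27, Bst2, the virus-tethering protein tetherin, also had 0.27, and Isg15, the ubiquitin-like modifier, had 0.22. The exception was Ifi44 with -0.06. Ifit3b, the third gene whose promoter is shown, had 43.3 FPKM in LNCKO control and 58.2 with butyrate, a change of 0.42, and its paralog Ifit1bl1 had 44.3 and 57.0, a change of 0.36. Trex1, a nuclease that degrades cytosolic DNA, had 60.1 and 77.2 FPKM and a change of 0.36, and at least 50% of its span lies under another gene model on the same strand. Ifit3b, Ifit1bl1 and Trex1 were named after their values were seen.

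A second interferon family pointed the same way. Of 23 interferon-inducible GTPases and DNA sensors of the p200 family past the limit, 21 lay above 0 in LNCKO with a median of 0.11, and 12 in WT with a median of 0.06. Its p200 sensors had the highest values, with 0.25 for Ifi208 and 0.24 for both Ifi209 and Ifi205. Iigp1, a GTPase that attacks the vacuoles of parasites, was lowest with -0.13. Of 11 genes for Fc gamma receptors and their signalling chains, 10 lay above 0 with a median of 0.11, among them the inhibitory receptor Fcgr2b with 0.15. Trem1, which is on this list but is not an Fc receptor, had the highest value with 0.18. Of the Ly6 family, which includes the monocyte marker Ly6C, 8 of 8 past the limit lay above 0 with a median of 0.11. Ly6a, known as Sca-1, had 517 and 635 FPKM and a change of 0.30, and Ly6c2 had 752 and 807 and a change of 0.10, where WT had 0.59 and 0.33.

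**Figure D3:**
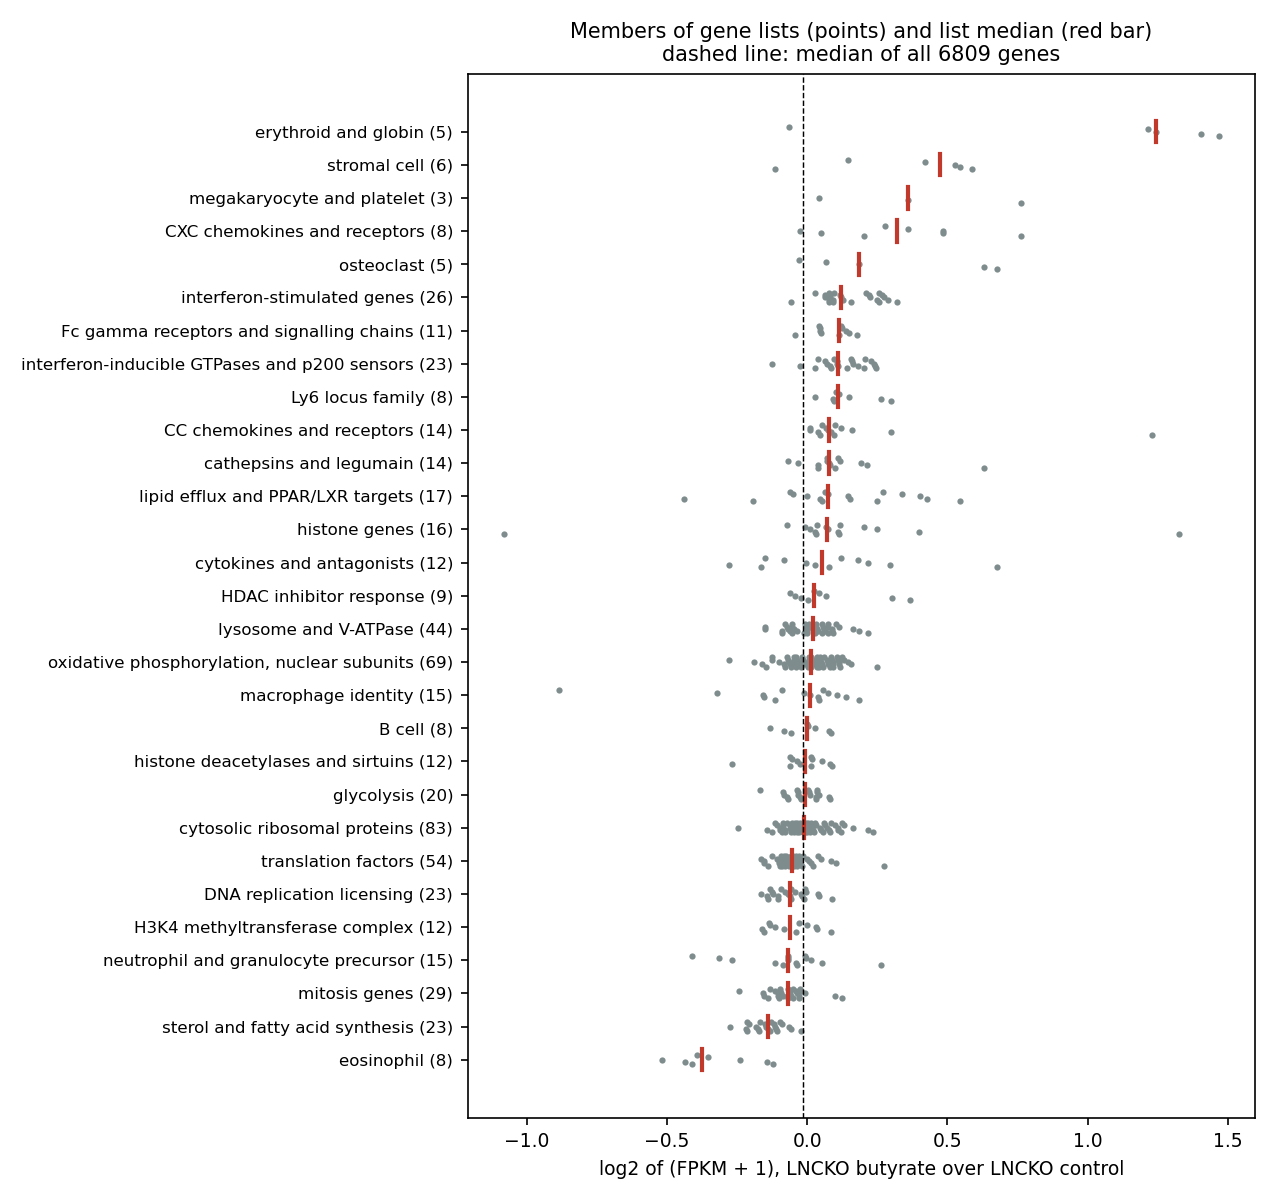
Log2 change with butyrate in LNCKO macrophages (horizontal axis) of the members of 29 gene lists, with 1 grey point per gene past the limit of 1 FPKM and a red bar at the median of each list, ordered by median and with the number of genes in parentheses. The eosinophil and osteoclast lists were written after values were seen, and the dashed line is the median of all 6809 genes at -0.01. Members of the sterol and fatty acid synthesis list all lie below 0, and the 14 on the list of CC chemokines and receptors, which does not hold Ccr3, all lie above it.

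Genes that make sterols and fatty acids were slightly lower together. Of 23 past the limit, 0 lay above 0 in LNCKO with a median of -0.14, and 4 in WT with a median of -0.11. None was past 0.32. Scd2, a desaturase that makes monounsaturated fatty acids, had 32.3 and 32.9 FPKM in WT without and with butyrate, and 39.3 and 32.3 in LNCKO, a change of -0.28, and here LNCKO control was the high library. Fads2, a desaturase of polyunsaturated fatty acids, had -0.22, and Fasn, the fatty acid synthase, had -0.21. Sterol enzymes were lower by less, with -0.18 for Hmgcs1 and -0.17 for Sqle. Srebf2, the transcription factor that governs them, had -0.18.

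Genes that handle and export lipid were split. Of 17 targets of PPAR and LXR receptors and related genes, 4 were at least 0.32 higher and 1 was lower, with a median of 0.07. Apoe, the lipoprotein that macrophages secrete with cholesterol, was the most abundant, with 2146 and 2772 FPKM in WT without and with butyrate, and 1907 and 2408 in LNCKO, a change of 0.34. The fatty acid binding proteins Fabp4 and Fabp5 had 4.50 and 89.9 FPKM in LNCKO control and 7.02 and 121 with butyrate, with changes of 0.54 and 0.43. Gpnmb, a membrane glycoprotein of lipid-loaded macrophages, had 43.6 and 58.0, a change of 0.40. All 4 were past 0.32 in WT as well. Lpl, the lipase that releases fatty acids from triglycerides, was lower, with 13.1, 7.71, 19.9 and 14.4 FPKM in the order used above and changes of -0.44 in LNCKO and -0.70 in WT. The cholesterol exporters Abca1 and Abcg1 had -0.05 and 0.07 in LNCKO.

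Lysosomal proteases and activation markers gave single genes. Ctsk, the collagen-degrading cathepsin K, had 1.12 and 1.89 FPKM in WT without and with butyrate, and 1.03 and 2.15 in LNCKO, a change of 0.63, and 12 of 14 cathepsin and legumain genes lay above 0 with a median of 0.08. Ctsk and Spp1 are also genes of osteoclasts, and on a list of these written after the values were seen 4 of 5 past the limit lay above 0, while the fusion gene Dcstamp was listed at 0 in both LNCKO libraries. Arg1, the arginase of alternatively activated macrophages, had 3.33 and 2.74 FPKM in WT without and with butyrate, and 7.05 and 11.6 in LNCKO, a change of 0.65, and was higher in both LNCKO libraries than in both WT libraries. The other 10 alternative activation genes past the limit were within 0.32, with Mrc1 at -0.16, Chil3 at -0.07 and Ccl22 at 0.01.

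Growth genes were slightly lower. Of 29 mitosis genes, 2 lay above 0 in LNCKO, Tacc3 and Birc5, with a median of -0.07, and 0 in WT with a median of -0.25. Ube2c, which targets mitotic proteins for degradation, was lowest with 6.498 FPKM in LNCKO control and 5.33 with butyrate, a change of -0.24. Of 23 genes of DNA replication, 3 lay above 0 with a median of -0.06, and the helicase subunits Mcm5, Mcm2 and Mcm6 had -0.17, -0.15 and -0.13. Of 54 translation factors, 8 lay above 0 with a median of -0.06, and the elongation factor Eef2 had 339.8 and 305 FPKM, a change of -0.15. Of 20 chaperones, 2 lay above 0, with a median of -0.05. All of these stayed within 0.32, and scaling the libraries by their median ratio put 6 replication genes and 7 chaperones above 0. The genes of ribosomes, proteasomes and energy metabolism lay near the median of all genes, with 0.01 for 69 nuclear genes of oxidative phosphorylation, -0.01 for 83 ribosomal protein genes, -0.01 for 36 proteasome genes and -0.01 for 20 glycolysis genes.

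Genes close to butyrate itself moved little. Of 9 genes commonly induced by histone deacetylase inhibitors, 6 lay above 0 with a median of 0.02. Gadd45a and Gadd45b, stress sensors that arrest growth, had 8.06 and 26.7 FPKM in LNCKO control and 10.7 and 33.2 with butyrate, with changes of 0.37 and 0.30. The linker histone H1f0 and the cell cycle inhibitor Cdkn1a, often used as markers of deacetylase inhibition, had 0.07 and -0.06. The 12 deacetylase and sirtuin genes had a median of -0.01. Of the butyrate receptors and transporters, 5 of 5 past the limit lay above 0, beside 42.2% of all genes. At any level 7 of 10 were higher and 2 lower, with a median of 0.02. Hcar2, the receptor for butyrate and niacin, had 18.8 and 19.5 FPKM in WT without and with butyrate, and 21.7 and 27.1 in LNCKO, a change of 0.31, Ffar2 had 0.15, and Ffar3 was listed at 0.

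Histone genes were mixed. Of the 37 listed, 16 passed the limit, 13 of these lay above 0 with a median of 0.07, and 3 were past 0.32. H3c14 had 1.74 and 0.7498 FPKM in WT without and with butyrate, and 0.113 and 1.79 in LNCKO, a change of 1.33 that rests on 11 and 214 fragments. H2ac18 was listed at 0 in WT control and LNCKO butyrate and had 7.67 FPKM in WT butyrate and 1.12 in LNCKO control, from 35 fragments. The libraries with the gene at 0 do not follow genotype or treatment. Both genes overlap Gm20634 on the same strand, a transcript that was not used here. H2ac8, the other listed gene past 0.32, had 0.40 from 46 and 89 fragments. H3c3, which is not on the list, had -0.34 from 39 and 29 fragments. H3c14, H2ac18 and H3c3 passed the limit of 1 FPKM only through the WT libraries, and with the limit set on the LNCKO libraries alone 14 listed genes were left, of which 1 was past 0.32.

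The 19 listed genes of the axis that the study follows were within 0.32 in LNCKO on the scale of FPKM + 1, which understates the change of low genes such as Runx3 and Nr4a1. With a pseudocount of 0.1 Runx3 had 0.41 and Nr4a1 had -0.37, both past 0.32. Runx3, the transcription factor at its centre, had 2.85 and 5.73 FPKM in WT without and with butyrate, and 0.849 and 1.16 in LNCKO. Its change in LNCKO was 0.22, a plain ratio of 1.36. On the gene's span its values gave 9206.62 fragments in WT control, 19461.99 in WT butyrate and 4352.78 in LNCKO butyrate. These are not whole numbers, unlike those of 98.4% of genes, and no interval is given. Nr4a1, an early-response nuclear receptor, had 1.62 and 1.23 FPKM, a change of -0.23 and a plain ratio of 0.759. Zfp36, which destabilizes cytokine mRNAs, had 170.3 and 163.9 FPKM, a change of -0.06, and Il1b had 15.5 and 16.9, a change of 0.12. The kinase gene Mapk3 (ERK1) had 0.01. Of 12 genes of the H3K4 methyltransferase complexes past the limit, 3 lay above 0 with a median of -0.06, among them Ash2l with 0.08 and Rbbp5 with 0.04, while Wdr5 had -0.14 and Kmt2a, which encodes MLL, had 0.00. Of 21 immediate early genes 8 lay above 0, with Egr1 lowest at -0.26.

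Several of the lowest genes overlap others. In the pairs given first, which were chosen from more, the values moved in opposite directions while their sum was nearly level. Raver1, an RNA-binding splicing co-factor at chromosome 9, 21074158 to 21092008, had 5.03 and 5.19 FPKM in WT without and with butyrate, and 5.02 and 0.0282 in LNCKO, the lowest change of all at -2.55. ENSMUSG00000111497 covers nearly all of it on the same strand and had 1.58, 1.2502, 1.65 and 4.97 FPKM. Together they had 130.0 fragments per 1000000 in LNCKO control and 122.3 with butyrate, a log2 ratio of -0.09. ENSMUSG00000030680 and Pagr1a, which covers it on the same strand, summed to 33.5 and 33.4. Mapkapk5 and ENSMUSG00000105340 summed to 39.9 and 38.8. Ptprcap and Rps6kb2, on opposite strands, summed to 83.5 and 86.4, and Snx22 and Ppib, also on opposite strands, to 186.1 in both libraries. Other pairs were not level. The sum of Mapkapk5 with Adam1a had a log2 ratio of -0.82, and that of ENSMUSG00000030680 with ENSMUSG00000092534 had -1.41. Amigo2 with Pced1b had -0.21. The sum of Ptprcap with Coro1b, which itself moved by 0.01, had -0.05. A gene model covered at least 50% of the gene on the same strand for 4.6% of all genes, for 5 of the 12 genes past 2-fold (41.7%) and for 18 of the 100 past 0.32 (18%). The 15 highest genes also held Tmem140, with 1.48 FPKM in LNCKO control and 3.29 with butyrate and a change of 0.79, and its sum with the overlapping Cyren had a log2 ratio of 0.22. They further held Rbm42 with 0.69, which overlaps Gm21982 on the same strand, and ENSMUSG00000096850 with 0.83, which lies on the Y chromosome but had 5.39 and 7.22 FPKM in the WT libraries, where Ddx3y was near 0. The 15 lowest also held Ccnq, a cyclin gene, with -0.60, Cklf, a chemokine-like factor, with -0.55, and Amigo2, an adhesion gene, with -0.51. How the authors' counting divided such reads is not given in the sources used here.

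**Figure D4:**
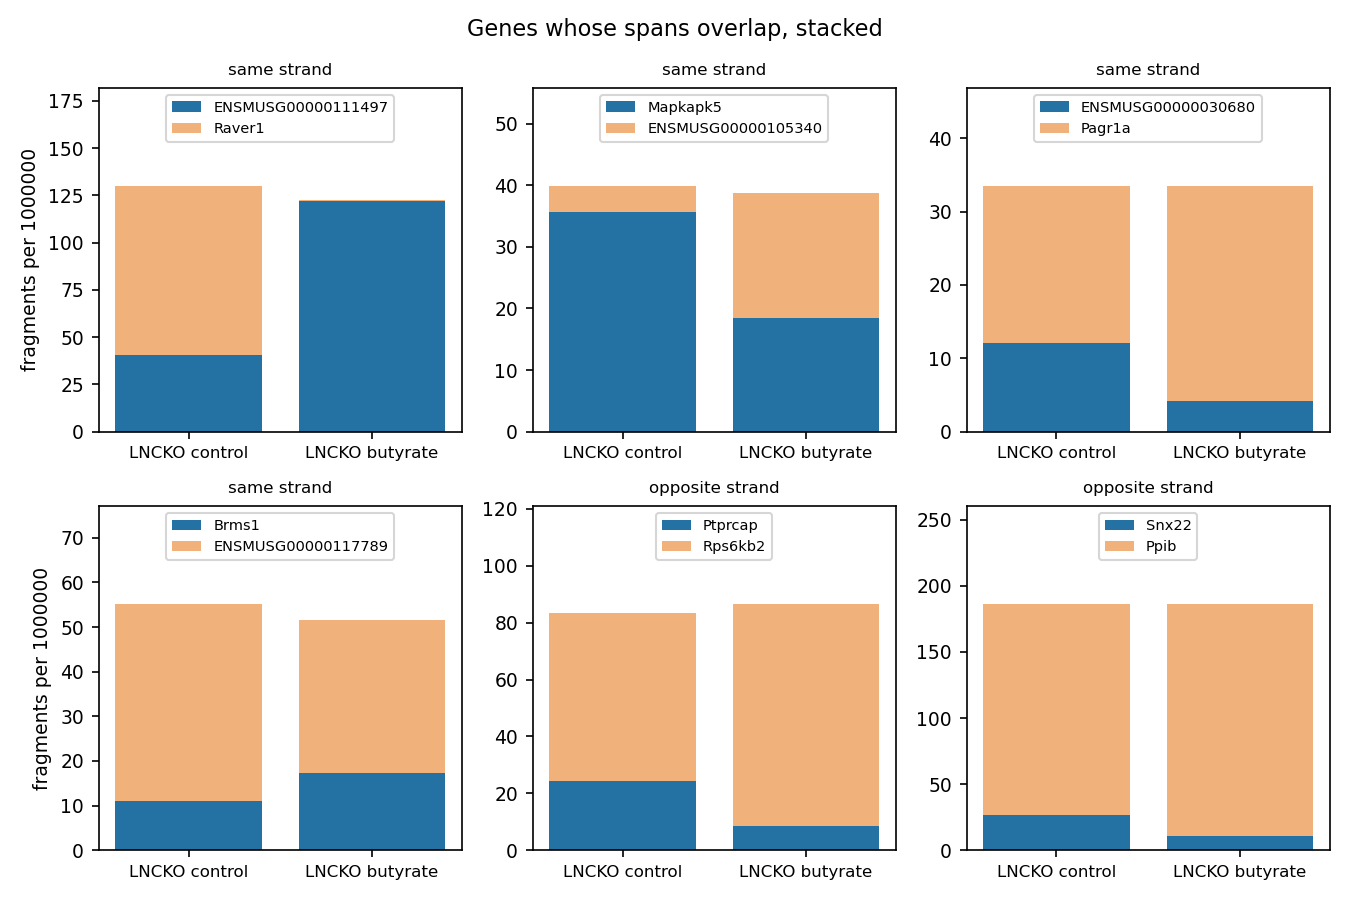
Fragments per 1000000 (vertical axes, from 0) of 6 chosen pairs of genes whose spans overlap, stacked, in LNCKO control and LNCKO butyrate, with the strands of each pair above its panel. The blue and orange parts move in opposite directions in each panel, and the stacked sums of Raver1 with ENSMUSG00000111497 (130.0 and 122.3) and of Snx22 with Ppib (186.1 in both) stay close.

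The change in LNCKO was last set beside that in WT for the same genes. In WT 201 genes (2.95%) were at least 0.32 higher with butyrate and 194 (2.85%) at least 0.32 lower. Of the 69 genes higher in LNCKO, 25 were also higher in WT, which is 36.2% of the LNCKO genes and 12.4% of the WT genes, beside 2.95% of all genes. They included Ccl8, Spp1, Ppbp, Pf4, Cxcl2, Ctsk, Apoe, Gpnmb, Fabp4, Fabp5, Ccn2 and Ms4a2. Of the 31 lower in LNCKO, 10 were also lower in WT, which is 32.3% and 5.15%, beside 2.85% of all genes. Among these 10 were Lpl, Cd14, Ccr3, Ear6, Ptprcap and Snx22. In opposite directions, 5 of the 69 (7.25%) were lower in WT, beside 2.85% of all genes. Likewise 5 of the 31 (16.1%) were higher in WT, beside 2.95%. H3c14 among the former, and H2ac18 and H3c3 among the latter, passed the limit of 1 FPKM only through the WT libraries. The filter itself thus adds to these shares. The genotypes have no library in common, and the size of the difference between them was not tested.

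Other genes differed between the genotypes. The 69 genes had a median change of 0.16 in WT and 49 of them lay above 0, and the 31 genes had a median of -0.09 with 14 above 0. Of all 6809 genes, 2512 lay above 0 in WT and the median was -0.04. The globin genes had smaller values in WT, where Hba-a1 had 0.06, Hba-a2 had 0.10, Hbb-bt had 0.24 and Hbb-b1 had 0.28, and the summed fragments of both beta genes had a log2 ratio of 0.43. Arg1 had 0.65 in LNCKO and -0.21 in WT, Col1a1 had 0.59 and -0.28, and Cxcl10 had 0.48 and 0.04. Asprv1, a skin protease gene named after its values were seen, had 1.61 in WT and 0.35 in LNCKO, and the coagulation factor gene F7, also named after its values were seen, had 1.49 and 0.42. Marco, a scavenger receptor for bacteria, had -1.05 in WT and -0.30 in LNCKO. Whether these differences exceed the spread between cultures was not tested.

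**Figure D5:**
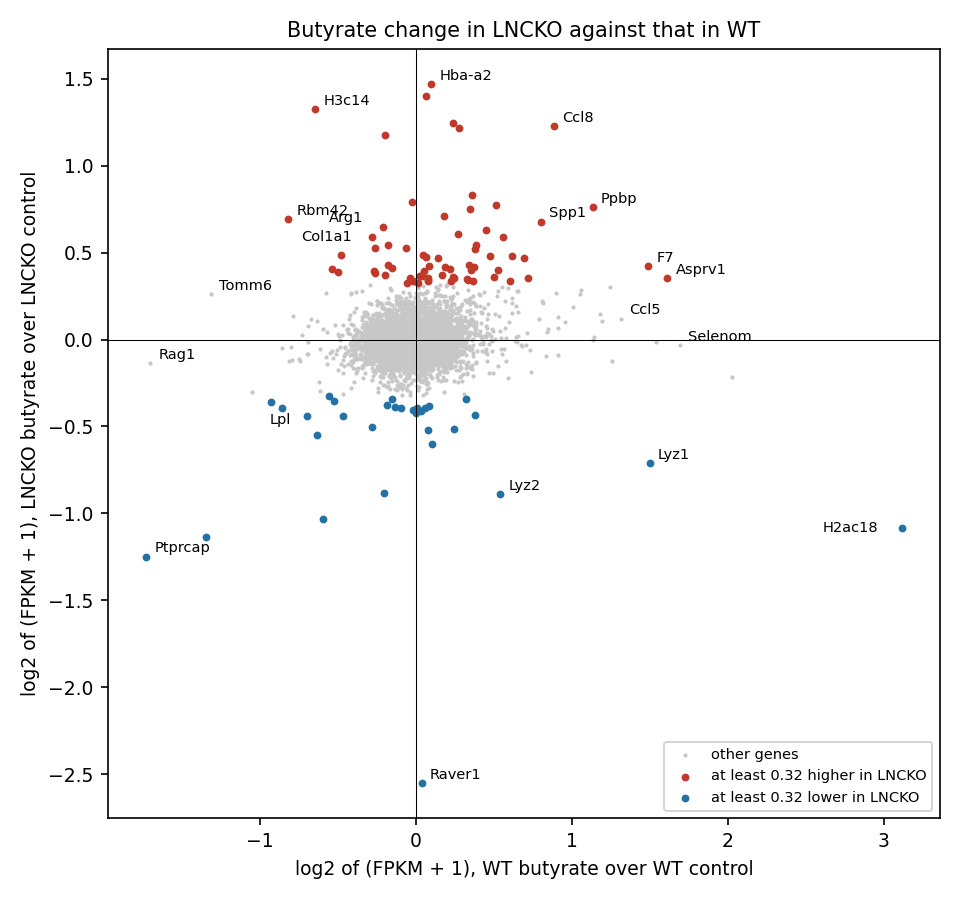
Log2 change with butyrate in LNCKO (vertical axis) against that in WT (horizontal axis) for 6809 genes, with 1 library per group. Of the 69 red genes (higher in LNCKO), 49 lie to the right of 0, and of the 31 blue genes (lower in LNCKO), 14 do, Lyz2, Lyz1 and H2ac18 among them, beside 2512 of all 6809 genes.

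Over all 66 gene lists, which hold 1108 different genes past the limit, 38 had a median within 0.05 of 0 in LNCKO, against 18 in WT. In 45 lists no member was past 0.32 in LNCKO, against 15 in WT. Of all genes, 1.01% were at least 0.32 higher and 0.455% lower in LNCKO, against 2.95% and 2.85% in WT. The counts of lists are to be read beside these shares, which alone leave fewer lists with such a member in LNCKO. A median of 0.1 or more was found for 8 lists, which were those of red cells, stromal cells, platelets, CXC chemokines, interferon-stimulated genes, interferon-inducible GTPases and sensors, Fc gamma receptors and the Ly6 family. The red cell median of 1.24 rests on the 4 globin genes and was 0.00 over all 17 genes without the filter on low values. The medians of the last 3 lists lay near this bound, and with FPKM rescaled to 1000000 per library they were 0.09 for the GTPases and sensors, 0.06 for the Fc gamma receptors and 0.09 for the Ly6 family. Sterol and fatty acid synthesis was the 1 list with a median of -0.1 or less.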

How the data were processed

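RNA sequencing of 4 bone marrow-derived macrophage libraries was analysed from the table of FPKM per gene that the authors deposited. The submitters' processing notes name STAR 2.5.0c, Picard 1.126, bedtools 2.17.0, HTSeq 0.6.0, DESeq2 3.0 and GRCm38 with no roles, and whether counting used strand is not given in the sources used here. The labels and the study's methods name different extraction and sequencing kits. On the genomic span of GENCODE M21 genes, the FPKM of 16076 genes (98.4%) gave whole fragments within 0.01, from which fragment counts, 95% Clopper-Pearson intervals and totals of 53363944 to 65521713 per library were taken. No value column lacked a sample.

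The change was log2 of (FPKM + 1) with butyrate over (FPKM + 1) in control, for genes whose FPKM averaged at least 1. With 1 library per group no test was run, and genes past 2-fold or past 0.32 (log2) were counted. Named genes were the 15 highest and 15 lowest, the list members furthest from 0 or defining their list, and genes past 0.32 in opposite directions in both genotypes. The members and the 66 gene lists were chosen with earlier results of these data known, and 2 lists (eosinophil and osteoclast) were added after values were seen. Alternatives were other pseudocounts, filters and scalings. Tables were handled with pandas 2.3.3 and numpy 2.4.6 in Python 3.11.15, intervals with scipy 1.17.1, sequences with biopython 1.88 and figures with matplotlib 3.10.9, and the scripts were tested on simulated data.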

Additional observations from a re-analysis of the deposited data

Results flagged for a closer look

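In 10 genes the change with butyrate passed 0.32 (log2) in both genotypes but in opposite directions, and the difference between the genotypes was not tested. Of the 69 genes higher in LNCKO, 5 (7.25%) were lower in WT, beside 2.85% of all genes. Of the 31 lower in LNCKO, 5 (16.1%) were higher in WT, beside 2.95% of all genes. Lyz2 was lower in LNCKO (-0.89) and higher in WT (0.54), a difference of -1.43 as LNCKO minus WT. Lyz1 had -0.71 and 1.498, a difference of -2.21. Both lysozyme genes stood on the same side in each genotype.

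In 3 histone genes the values were low. H2ac18 had -1.08 in LNCKO and 3.12 in WT, a difference of -4.2, and was listed at 0 in 2 of the 4 libraries. H3c14 had 1.33 and -0.65, a difference of 1.97, and H3c3 had -0.34 and 0.32, a difference of -0.67. All 3 passed the limit of 1 FPKM only through the WT libraries, and the shares of genes in opposite directions include them. The values of H2ac18 depend on the pseudocount, since a library at 0 has no log ratio without one.

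The other 5 genes were single members of different families. Gdf15, a stress-induced cytokine, had 0.49 and -0.48, a difference of 0.97. Klk1, a tissue kallikrein, had 0.39 and -0.50, a difference of 0.89. Rbm42, an RNA-binding protein gene that overlaps Gm21982, had 0.69 and -0.82, a difference of 1.51. Brms1 had 0.41 and -0.54, a difference of 0.95, and its sum with the overlapping ENSMUSG00000117789 had -0.09 in LNCKO. Ppp1r14b, a phosphatase inhibitor, had -0.44 and 0.38, a difference of -0.82.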

How the results depend on the processing

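The counts of genes depended on the pseudocount, the filter and the scale. A pseudocount of 0.1 gave 13 genes at least 2-fold higher, and 127 higher and 84 lower at 0.32 (log2). No pseudocount gave 16, 137 and 101. A minimum mean FPKM of 5 gave 4 higher and 1 lower at 2-fold and 29 and 11 at 0.32. No filter gave 53 lower at 0.32. FPKM rescaled to 1000000 also changed the genes taken (11021) and gave 57 higher and 38 lower at 2-fold and 376 and 357 at 0.32, and fragments per 1000000 gave 12 higher at 2-fold and 109 and 75 at 0.32. The other counts stayed within 1.5 times. Of 8660 gene values under these alternatives 97 moved by more than 0.2 (log2). Of those past 0.32 in the main setting, 0 turned direction. A change of pseudocount or filter cannot turn the sign of a gene, so this count says little about stability. Of 544 list medians 9 moved, and that of stromal genes reversed to -0.12 with a minimum mean FPKM of 5, which left Vim alone. No paired analysis was possible because each group holds 1 library, and leaving out a library would have emptied its group. The spread between cultures is unknown.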
